A study of Mus musculus with 10 samples.

Results

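An antisense oligonucleotide (ASO) against the small nucleolar RNA Snord89 was compared with a non-targeting control ASO in mouse neurons by RiboMeth-seq, which locates 2′-O-methylated riboses from the bonds that resist mild alkali. The comparison used 4 of the 10 libraries of the series: control ASO A and B, and Snord89 ASO A and B. They were taken as members because they are the libraries of the Snord89 table, and all 13591 positions of that table were kept, 13400 on the 45S pre-rRNA and 191 on the U2 small nuclear RNA. All 4 libraries came from embryonic stem cells (ESCs) turned into neurons by doxycycline-induced Ngn2, a proneural transcription factor. Both groups took up a gapmer ASO from the medium at 10 uM, and RNA was extracted 72 to 96 hours later. The labels give no genotype beyond the ESC origin, no age and no clone, and they describe A and B as biological replicates without saying which cultures they came from. The remaining 6 libraries are ESCs and a separate set of neurons given a Snord101 ASO or its own non-targeting ASO. Because the table holds read ends on 45S and U2 only, the neuronal identity of the cells could not be checked against marker genes, and the level of Snord89 itself was not analysed here.

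C/D box small nucleolar RNAs guide the methyltransferase fibrillarin to ribose 2′-OH groups. The snoRNA pairs with its target just upstream of a short conserved element, the D or D′ box, and the target nucleotide paired to the fifth position upstream of the box is methylated. Known targets lie in 18S, 5.8S and 28S rRNA, which are cut out of the 45S precursor, and in spliceosomal RNAs. U2 is the spliceosomal RNA that pairs with the intron branch point, and its 5′ part carries many 2′-O-methyl groups and pseudouridines. The bond beside a methylated ribose resists alkali, so hardly any sequenced fragment ends there, and a dip in the read-end counts marks the site.

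The Snord89 ASO is a MOE gapmer of 20 nt, with 5 modified nucleotides at each end and a DNA gap of 10 between them. This design directs RNase H to cut the RNA that the gap pairs with. RefSeq (table for GRCm38.p6) lists Snord89 as a snoRNA gene between Cnot11 and Gm18446 contained in 0 other genes of that table.

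The libraries held from 79070492 (Snord89 ASO B) to 94428078 (control A) ends on 45S and from 361649 (control B) to 428983 (control A) ends on U2. Dense stretches of the 45S were taken as 18S (positions 4008 to 5864), a short segment between 18S and 28S (6869 to 7041) and 28S (8112 to 12836), and the rest as spacer. The deposited score of a position is a fraction, 1 minus the ratio of its ends to those of its neighbours (a weighted mean over 6 positions upstream and 6 downstream), with values below 0 set to 0. A score near 1 marks a protected position. Tests were made by edgeR's quasi-likelihood method on the end counts relative to the flanking mean. Their effect is a log2 end ratio, positive where the Snord89 ASO libraries had more ends at the position relative to its flanking mean. The score is then lower, or stays at 0 where it is already 0. Calls with more or fewer ends are meant in this relative sense. Over the 1465 protected positions tested, the mean absolute score difference was 0.0566 between the controls and 0.0547 between the Snord89 ASO libraries. Between single libraries of different groups it was 0.0589 to 0.0681 over the 4 pairs, which was above the spread within a group by a small margin.

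Protection fell steeply at adjacent nucleotides of U2, positions 11 and 12. Of the positions of U2 and the mature rRNA segments that scored 0.9 or more in both controls, these were the only ones lower by 0.1 in the knockdown. At U2 11 the score was 0.950 in control A and 0.971 in control B, against 0.233 in Snord89 ASO A and 0.245 in Snord89 ASO B. The group means were 0.960 ± 0.0147 (SD, n = 2) and 0.239 ± 0.00826 (SD, n = 2), a difference of -0.721. At U2 12 the score was 0.971 and 0.976 in the controls against 0.578 and 0.622 in the knockdown. These gave 0.973 ± 0.00320 (SD, n = 2) and 0.600 ± 0.0314 (SD, n = 2), a difference of -0.373. The groups stood far apart at both positions, and the score kept by the knockdown libraries was lower at U2 11 than at U2 12 in both of them.

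**Figure D1:**
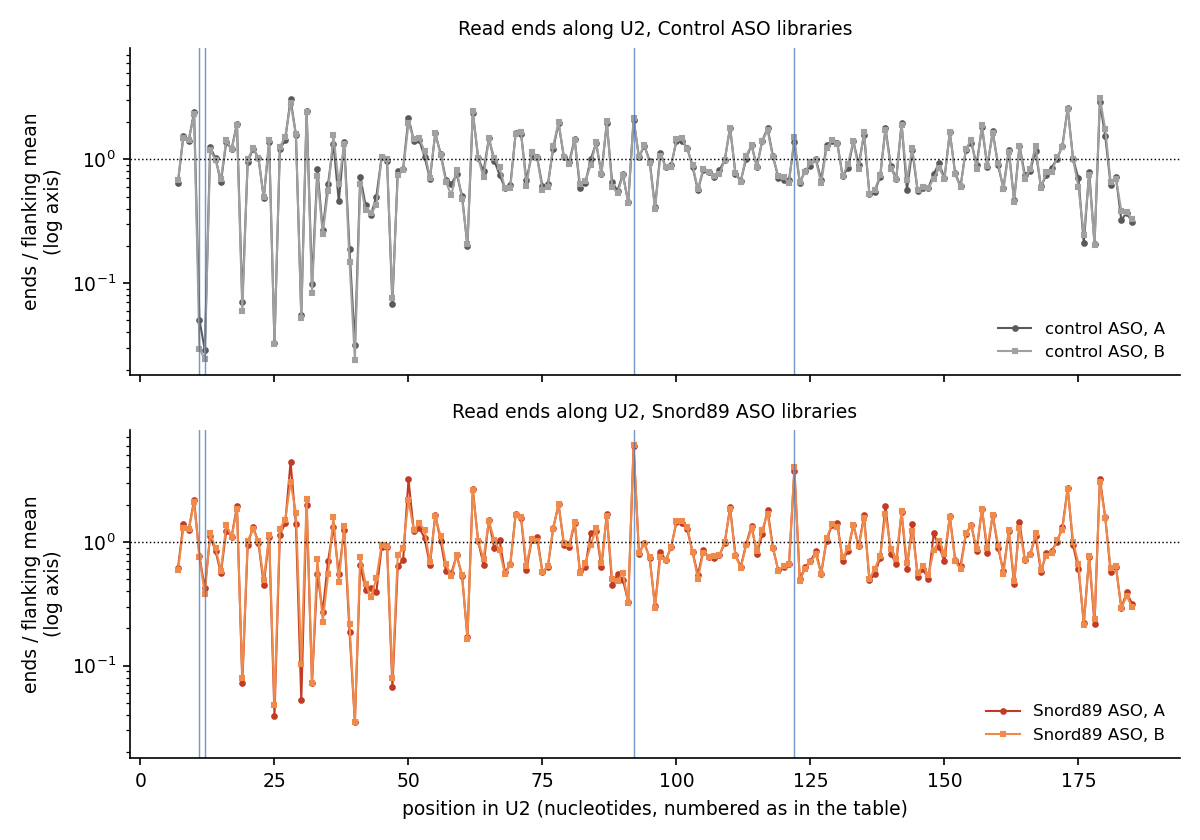
Ends at each tested position of U2 divided by the weighted flanking mean, on a log axis, for the control libraries (top) and the Snord89 ASO libraries (bottom); the lines join positions of 1 library, and vertical lines mark positions 11, 12, 92 and 122. The gap at 11 and 12 in the controls (ratios of 0.0243 to 0.0502) is filled to 0.378 to 0.767 in the knockdown, while the other deep gaps are seen in all 4 libraries.

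The counts behind these scores changed at the positions themselves. U2 11 had 72 and 40 ends in the controls against 1139 and 1077 in the knockdown. Its flanking mean differed little between the groups, at 1433 and 1356 against 1485 and 1426. U2 12 had 43 and 34 ends in the controls against 669 and 575 in the knockdown, beside flanking means of 1492, 1400, 1584 and 1522. Among the 1465 protected positions tested, 8 passed the threshold (0.546%), 4 with more ends (0.273%) and 4 with fewer (0.273%), and 182 had an unadjusted p under 0.05 (12.4%). TMM library totals in place of the flanking mean make this a test of the position's own ends. With them 2 passed with more ends and 0 with fewer. U2 11 had a log2 end ratio of 4.25 (edgeR adjusted p = 1.8e-05, SE 0.20) and U2 12 one of 3.91 (edgeR adjusted p = 1.8e-05, SE 0.18). The mean score of U2 11 passed the minimum of this test through the controls alone. In the test with no minimum on the score, U2 11 and U2 12 each had an edgeR adjusted p of 2.4e-04. As a share of all ends, U2 11 itself moved by 4.48 on the log2 scale and its flanking mean by 0.23. For U2 12 these values were 4.18 and 0.27. With 2 libraries against 2, an exact permutation test cannot go below p = 0.333, so these calls rest on the spread pooled over positions. By limma on the log2 ratio U2 11 did not pass (adjusted p = 0.102).

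Because positions 11 and 12 lie in each other's flanking window, each score was also computed with the other position left out of the window. The score of U2 11 was then 0.964 ± 0.0131 (SD, n = 2) in the controls and 0.290 ± 0.0105 (SD, n = 2) in the knockdown, a difference of -0.675. That of U2 12 was 0.976 ± 0.00290 (SD, n = 2) and 0.614 ± 0.0307 (SD, n = 2), a difference of -0.362. Both stayed near the deposited scores. Ranked by ends over flanking mean among the 179 tested positions of U2, position 11 stood at percentiles 1.68 and 1.12 in the controls against 43.6 and 39.1 in the knockdown. Position 12 stood at 0 and 0.559 in the controls against 10.1 and 9.50 in the knockdown. Position 11 thus came near the middle of the U2 profile and position 12 remained in its lower part.

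The neighbours of the pair showed no comparable gain. U2 10, directly upstream, had 2793 and 2562 ends in the controls against 2874 and 2653 in the knockdown (edgeR adjusted p = 0.557). U2 13, directly downstream, had 1628 and 1435 against 1602 and 1611 (edgeR adjusted p = 0.777). At U2 14, whose window holds the pair, the mean score was 0.00332 in the controls against 0.135 in the knockdown (edgeR adjusted p = 0.439), on 1370 and 1258 ends against 1239 and 1259. From U2 7 to U2 18, no tested position other than 11 and 12 passed the threshold by edgeR. U2 5 and U2 6 were not tested.

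Besides 11 and 12, 6 positions of U2 had a control score of 0.9 or more in both libraries, and none of them passed the test. U2 19 had a mean score of 0.935 in the controls against 0.924 in the knockdown (edgeR adjusted p = 0.680). U2 25 had 0.967 and 0.956 (edgeR adjusted p = 0.459). U2 30 had 0.946 and 0.922 (edgeR adjusted p = 0.523), where Snord89 ASO A, at 0.948, lay within the controls' level and Snord89 ASO B, at 0.897, lay under it. U2 32 had 0.909 and 0.927 (edgeR adjusted p = 0.541), U2 47 had 0.928 and 0.927 (edgeR adjusted p = 0.965) and U2 40 had 0.972 and 0.965 (edgeR adjusted p = 0.820). The value at U2 40 rests on 11 and 7 ends in the controls against 10 and 10 in the knockdown, so only a large change could have been detected there. All 6 means in the knockdown were above 0.9. A second class of 4 U2 positions had scores of 0.75 to 0.9 in both controls, and their differences ran from -0.0346 at U2 39 to 0.0353 at U2 61, with none past the threshold.

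**Figure D2:**
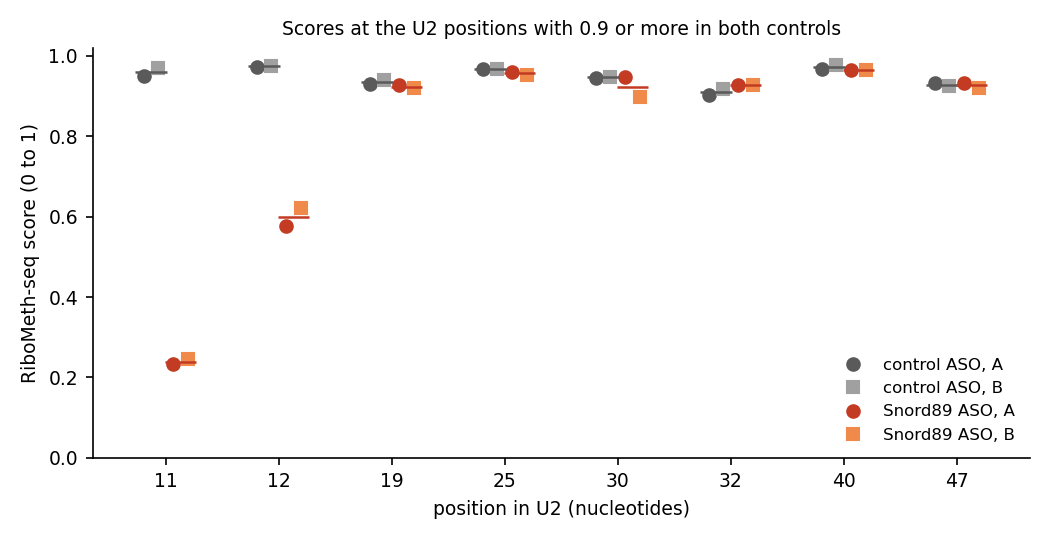
RiboMeth-seq score (0 to 1) at the 8 positions of U2 with a control score of 0.9 or more in both libraries; each symbol is 1 library and the short bars are group means. The knockdown libraries lie near 0.24 at position 11 and near 0.6 at position 12, and at 0.897 or above at the other 6 positions.

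At the strongly protected positions of the mature rRNA segments the scores of the groups lay close together. In the 18S, short and 28S segments together, 111 positions had a control score of 0.9 or more in both libraries. Their score differences ran from -0.0333 at 45S 10465 to 0.0253 at 45S 8119, with a median of -0.00114, and 0 of 111 were lower by 0.1. Split by segment, the median difference was -0.00209 over 38 positions of 18S, 0.0108 over 5 positions of the short segment and -0.000729 over 68 positions of 28S. The lowest 18S value was -0.0175 at 45S 4053. Among all 119 such positions of the dense segments and U2, the 2 with a difference past 0.1 were U2 11 and U2 12. The class of 0.75 to 0.9 held 108 positions in the dense segments, with a median of -0.00385. Here 2 positions of 28S were lower by 0.1, with -0.110 at 45S 11062 and -0.100 at the next, and none passed the test.

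The spacers gave wider score differences on fewer ends. The median flanking mean in the spacers was 60.2 to 88.8 ends per library, against 6338 to 7936 in 28S. Of 26 spacer positions with a control score of 0.9 or more in both libraries, 2 were lower by 0.1, the lowest by -0.263 at 45S 13133. Over all 588 protected spacer positions tested, the differences ran from -0.378 to 0.459 and 0 passed the threshold by edgeR, DESeq2 or limma, with 42 at an unadjusted p under 0.05 by edgeR. In 18S, 0 of 225 protected positions passed by edgeR, with 19 at an unadjusted p under 0.05, and DESeq2 called 2. In the short segment 0 of 42 passed by edgeR, with 8 at an unadjusted p under 0.05, and DESeq2 called 1. The 28S segment had 5 of 587 past the threshold by edgeR, with 109 at an unadjusted p under 0.05 (18.6%). DESeq2 called 30 there. Counted by size alone, 94 of the 1465 positions were lower in the knockdown by at least 0.1 with no overlap between the groups (6.42%) and 69 were higher (4.71%). Without regard to overlap, 242 positions (16.5%) differed by that much between the controls and 236 (16.1%) between the knockdown libraries. Between single libraries of different groups the number was 261 (17.8%) to 319 (21.8%) over the 4 pairs. By group means and without regard to overlap, the spacers had 87 positions lower by 0.1 and 84 higher. U2 and the dense segments together had 32 lower and 4 higher of 877, of which 28S had 28 lower and 2 higher of 587.

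The other 6 called protected positions changed less. U2 91 rose in score from 0.551 ± 0.00182 (SD, n = 2) to 0.676 ± 0.00435 (SD, n = 2), with an edgeR adjusted p of 0.0494. Its own ends were 1738 and 1430 in the controls against 1508 and 1419 in the knockdown, a log2 change of 0.06 as a share of all ends, while its flanking mean moved by 0.53. U2 91 adjoins U2 92, whose ends are described further on. In 28S, 45S 8260 and 45S 8294 fell in score by 0.153 and 0.113 (edgeR adjusted p = 0.0460 and 0.0465). The mean score of 45S 8260 passed the minimum through the controls alone (0.621 against 0.468 in the knockdown). With no score minimum, U2 91, 45S 8260 and 45S 8294 did not pass (edgeR adjusted p = 0.0712, 0.0649 and 0.0672). As a share of all ends, 45S 8260 itself moved by -0.14 and its flanking mean by -0.63. For 45S 8294 these values were -0.02 and -0.50. At these 3 positions, and at 45S 8116 below, the flanking mean moved more than the ends at the position.

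The remaining 3, all in 28S, had higher scores in the knockdown. 45S 11380 rose by 0.0776 (edgeR adjusted p = 0.0313), from 0.689 in both controls to 0.762 and 0.772. 45S 8119, the eighth nucleotide of the dense 28S stretch, rose by 0.0253 (edgeR adjusted p = 1.5e-04), with 3349 and 2731 ends in the controls against 1513 and 1550 in the knockdown. 45S 8116 rose by 0.0129 (edgeR adjusted p = 0.0268). Its own share of ends moved by -0.25 on the log2 scale and its flanking mean by 0.34. Both 45S 8116 and 45S 8119 lie at the start of the dense stretch, with flanking means of 33877 to 74719 ends. The median flanking mean of 28S was 6338 to 7936. The part of the segment edge in their scores was not tested. The groups did not overlap in score at any of the 8 called positions, which held for 666 of the 1465 tested (45.5%). The count of 8 depended on single libraries: it was 74 without control A, 3 without control B, 104 without Snord89 ASO A and 30 without Snord89 ASO B. Without control B, 45S 8260, 8294, 8116, 11380 and U2 91 did not pass, with edgeR adjusted p of 0.101, 0.128, 0.0606, 0.101 and 0.101.

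A score of 0 hides positions that already have more ends than their neighbours, so the same test was run at positions of any score. Of 13141 positions tested, 39 passed (0.297%), 14 with more ends in the knockdown (0.107%) and 25 with fewer (0.190%), and 1259 had an unadjusted p under 0.05 (9.58%). The split depended on the scaling and the model. With TMM library totals in place of the flanking mean, 5 positions had more ends and 29 fewer, with 22 of the 39 among them. With the replicate block, 112 had more ends and 110 fewer. U2 held 4 of these calls among 179 tested positions (2.23%), all with more ends: U2 11, 12, 92 and 122. The 28S segment held 27 of 4725 (0.571%), of which 7 had more ends and 20 fewer. The 5′ spacer held 8 of 3965 (0.202%), 3 with more and 5 with fewer. By edgeR there were 0 calls among the 1857 positions of 18S, with 144 at an unadjusted p under 0.05, and 0 among the 173 of the short segment, with 21. DESeq2 called 10 and 2 positions there. In 28S, 740 positions had an unadjusted p under 0.05 by edgeR (15.7%), and DESeq2 called 201. At all 39 the end ratios of the groups did not overlap, which held for 41.0% of all tested positions (18.3% lower and 22.6% higher in the knockdown). There were 4 calls without Snord89 ASO B, all among the 39, and 6 without Snord89 ASO A, 5 of them among the 39. There were 593 calls without control A (295 with more and 298 with fewer) and 118 without control B (56 and 62). Limma on the log2 ratio called 0 positions, with 1100 at an unadjusted p under 0.05. U2 11 had an edgeR adjusted p of 0.0512 without Snord89 ASO B.

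U2 92 and U2 122, which lie 30 nucleotides apart, gained ends at places that were not protected in any library. U2 92 had 6640 and 5620 ends in the controls against 16726 and 16190 in the knockdown. Relative to its flanks it had a ratio of 2.09 and 2.15 in the controls against 5.92 and 6.04 in the knockdown, a log2 end ratio of 1.50 (edgeR adjusted p = 1.2e-04, SE 0.05). U2 122 had 4347 and 3873 ends in the controls against 10950 and 11228 in the knockdown. Its ratio was 1.38 and 1.50 against 3.77 and 4.03, a log2 end ratio of 1.44 (edgeR adjusted p = 2.4e-04, SE 0.07). The score was 0 in all 4 libraries at both, so they do not enter the test of protected positions. U2 92 held 1.55% and 1.55% of all U2 ends in the controls against 4.10% and 4.26% in the knockdown. U2 122 held 1.01% and 1.07% in the controls against 2.68% and 2.96% in the knockdown. In the knockdown U2 92 stood at the 99.4th percentile of the U2 end ratios in both libraries, and U2 122 at the 98.3rd and 98.9th. By edgeR the other 175 tested positions of U2 did not pass, and their log2 end ratios ran from -0.50 at U2 90 to 0.52 at U2 30, with a median of -0.04. DESeq2 called 22 positions of U2 in all. The calls at U2 92 and U2 122 held without any 1 of the 4 libraries. The 12 outermost positions of U2 have no full flanking window and were not tested. U2 1 had 7 and 13 ends in the controls against 14 and 32 in the knockdown, and U2 2 had 42 and 30 against 47 and 50.

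**Figure D3:**
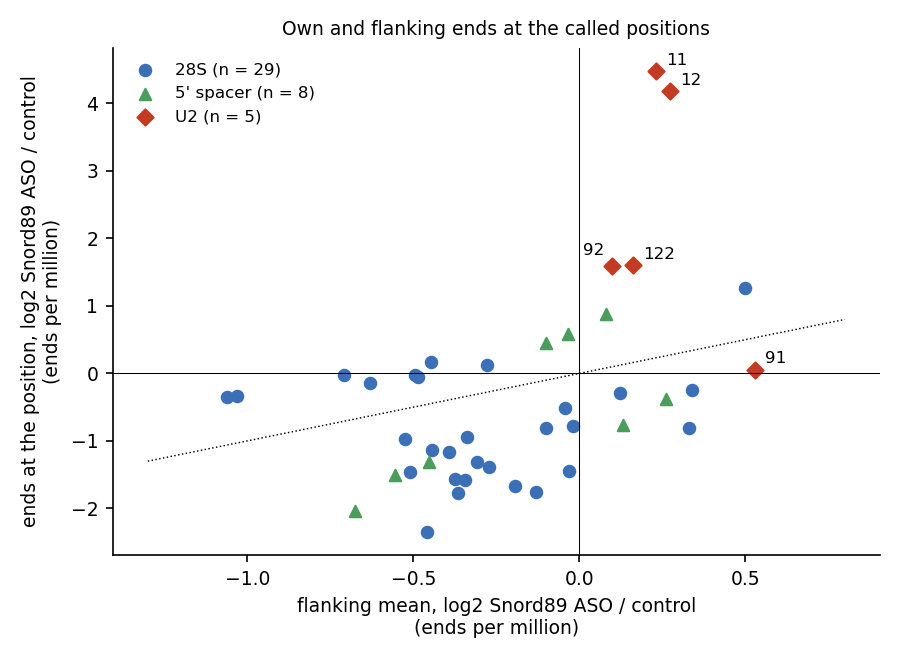
Change in the ends at each called position (vertical) against the change in its flanking mean (horizontal), both as log2 of Snord89 ASO over control in ends per 1000000 of all ends, for the 42 positions called among protected positions, among positions of any score, or both; the dotted line marks equal change. U2 11, 12, 92 and 122 lie above the line with flanking changes between 0.10 and 0.27, and U2 91 lies below it with an own change of 0.06.

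The calls with fewer ends lay mainly in 28S, and most had more ends than their flanks. Of the 25, 16 had a score of 0 in all 4 libraries. In both controls 22 had more ends than their flanking mean, which was the case for 35.6% of all tested positions. Since the 25 were called for a lower ratio in the knockdown, a high ratio in the controls is partly fixed by the call. At 10 of the 25 the mean ratio to the flanks over the 4 libraries was 2 or more. This was so for 481 of the 13141 tested positions (3.66%). That mean includes the controls, where the 25 calls are high by selection, so the contrast is partly built in. Over these 481 the median log2 end ratio was -0.01, and the groups did not overlap at 119 with a lower and 102 with a higher ratio in the knockdown. Of the 14 calls with more ends, 8 had more ends than their flanking mean in both controls and 5 had a mean ratio of 2 or more. The share of all ends at the position itself was lower in the knockdown at all 25. The largest was 45S 10585, with 55955 and 87819 ends in the controls against 13891 and 11346 in the knockdown and a log2 end ratio of -1.87 (edgeR adjusted p = 0.0018, SE 0.13). 45S 8255 had 22705 and 25241 ends against 6663 and 5836, a log2 end ratio of -1.41 (edgeR adjusted p = 2.4e-04, SE 0.06). 45S 8292 had 20608 and 23964 against 6843 and 6446, a log2 end ratio of -1.23 (edgeR adjusted p = 4.7e-04, SE 0.06). Both of these lie in the first part of 28S, within 6 positions of 45S 8260 and 45S 8294 respectively, the protected positions whose flanking mean was lower. 45S 8208 (log2 end ratio -1.43), 8918 (-1.60), 8903 (-1.43), 8838 (-1.16), 8386 (-1.10), 10512 (-1.01) and 8956 (-0.93), also in 28S, had fewer ends as well. Without Snord89 ASO A or without Snord89 ASO B, 45S 10585 did not pass (edgeR adjusted p = 0.128 and 0.165), and 45S 8255 was the 1 call of the 25 left in either case.

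In the 5′ spacer, the calls with fewer ends included 45S 1191, with 247 and 380 ends in the controls against 69 and 67 in the knockdown (log2 end ratio -1.36). 45S 1009 had 1331 and 1103 against 411 and 354 (-0.94), 45S 679 had 2378 and 2113 against 1224 and 1132 (-0.89), and 45S 1056 had a log2 end ratio of -0.86. The calls with more ends outside U2 were smaller. The largest was 45S 684 in the 5′ spacer, with 1398 and 1248 ends in the controls against 2220 and 2104 in the knockdown, a log2 end ratio of 0.80 (edgeR adjusted p = 0.012, SE 0.07). In 28S the 7 calls with more ends relative to their flanks ran from 0.41 to 0.76 in log2 end ratio. At 3 of them the share of all ends at the position itself was higher in the knockdown. At the other 4, 45S 10510, 10580, 10586 and 10587, it was lower, and the flanking mean moved by -0.49 to -1.06 on the log2 scale. The windows of the last 3 hold 45S 10585, the position with the largest fall. Among all 14 calls with more ends, the position's own share was higher at 10.

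The separate Snord101 set, with its own controls, shows which 45S calls also appear with another ASO. The counts of that set cover 45S only, so the U2 calls could not be compared with another ASO. Of the 25 positions with fewer ends, 24 had fewer ends in the Snord101 comparison too, and 16 passed its threshold in that direction. At 45S 10585 the Snord101 set had 167075 and 131960 ends in the controls against 22795 and 19735 in the knockdown, a log2 end ratio of -1.96 beside -1.87 here. 45S 8255 had -1.61 there and -1.41 here, and the difference did not pass (edgeR adjusted p = 0.793). Of the 10 positions of 45S with more ends, 7 had more ends in both comparisons and 2 passed in both in that direction. Over all 12928 positions tested in both sets, 61.6% had the same direction. The Snord101 comparison called 48 of 12997 positions, and 19 of the 35 Snord89 calls on 45S were among them.

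The difference between the comparisons was tested as the Snord89 log2 end ratio minus the Snord101 one, and 9 of 12928 positions passed (0.0696%), with 902 at an unadjusted p under 0.05 (6.98%). The largest was 45S 11405 in 28S, where scores stayed high in the Snord89 set. Its score was 0.990 and 0.989 in the controls and 0.988 and 0.979 with the Snord89 ASO, and its Snord89 log2 end ratio was 0.61, against 6.01 in the Snord101 comparison (difference -5.39, edgeR adjusted p = 0.0019). Of the others, 5 lay within 10 nucleotides of each other in the 5′ spacer, from 45S 678 to 687. There 45S 681 had 3033 and 2581 ends in the controls and 3878 and 3616 in the Snord89 knockdown, a log2 end ratio of 0.62 (edgeR adjusted p = 0.023), against -1.56 in the Snord101 comparison. 45S 678 had a Snord89 log2 end ratio of -0.23, which did not pass (edgeR adjusted p = 0.359), against 1.73. The differences at 45S 11405, 678 and 681 passed without any 1 of the 4 libraries of the Snord89 set, and the other 6 did not pass in any of those 4 fits, so that the count was 3 in each.

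**Figure D4:**
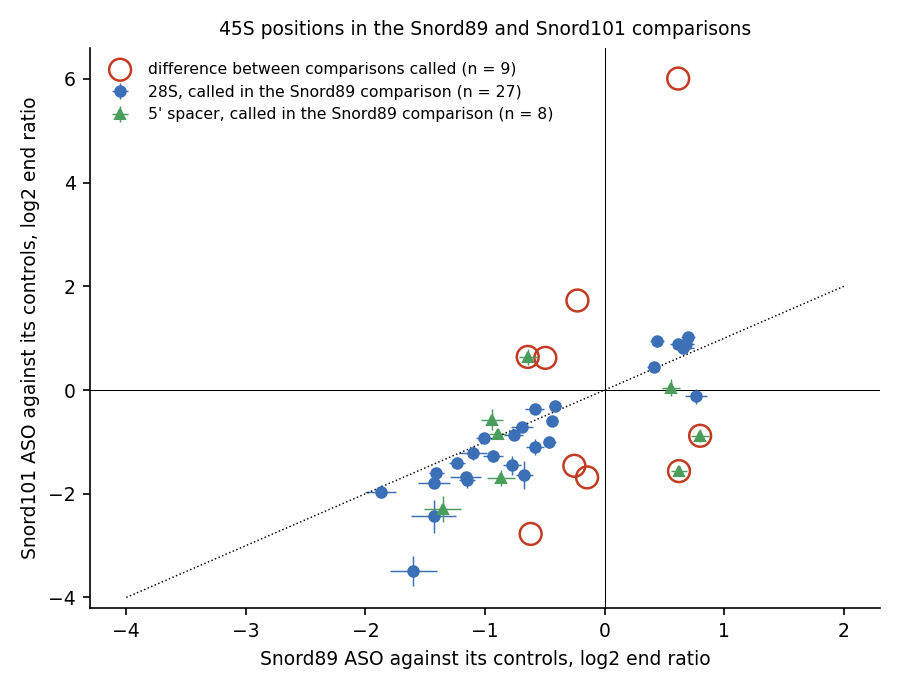
Log2 end ratio in the Snord101 comparison (vertical) against that in the Snord89 comparison (horizontal) for the 35 positions of 45S called in the Snord89 comparison (filled symbols with bars of 1 SE) and the 9 positions where the difference between the comparisons passed (open circles); the dotted line marks equal values. Of the 25 calls below 0 on the horizontal axis 24 are also below 0 on the vertical axis, and the circle at the top, 45S 11405, has 0.61 and 6.01.

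The shares of the RNAs and segments in the read ends were compared over libraries. U2 took 0.452% and 0.400% of all ends in the controls against 0.477% and 0.478% in the knockdown, so the knockdown libraries were above both controls (exact two-sided permutation p = 0.333, the smallest that 2 against 2 can give). Within the 45S, 18S took 33.4% and 31.7% of the ends in the controls against 33.4% and 33.2% in the knockdown, and 28S took 61.1% and 63.1% against 61.3% and 61.4%. The short segment took 4.70% and 4.26% against 4.54% and 4.64%. The groups overlapped for these 3 segments (exact two-sided permutation p = 0.667, 1.0 and 1.0).

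All 4 spacer stretches took a lower share of the 45S ends in both knockdown libraries. The 5′ spacer held 0.571% and 0.626% in the controls against 0.509% and 0.506% in the knockdown. The spacer between 18S and the short segment held 0.124% and 0.137% against 0.111% and 0.111%. The spacer between the short segment and 28S held 0.127% and 0.151% against 0.104% and 0.111%, and the 3′ spacer 0.00794% and 0.00793% against 0.00553% and 0.00595%. The groups did not overlap in any of the 4, and each had the smallest exact two-sided permutation p that this design allows, 0.333. In bulk RNA, less precursor per cell and fewer cells that make it cannot be told apart. For the 3′ spacer the direction turned, to a difference of 0.0344 percentage points, when dense segments were set at 10 ends per 1000000 instead of 5, because its start then moved to position 12835, inside 28S.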

How the data were processed

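Per the submitters' processing notes, Trim Galore, cutadapt, Bowtie2 and bedtools were used, without versions or roles, and the reference sequences and genome build are not given in the sources used here. Per the labels' protocols, 150 to 250 ng of RNA was hydrolysed for 1 to 12 minutes to fragments of about 50 to 100 bp. The authors deposited whole-number counts of 5′ plus 3′ read ends per position and library. They also deposited the score, a fraction from 0 to 1. It was recomputed from the counts to within 1e-06 at 100% of the positions compared.

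Each test was edgeR's quasi-likelihood test (edgeR 4.0.16, R 4.3.3) on the counts, with the logarithm of the flanking mean (weights 1.0 to 0.5) as offset, a mean flanking count of at least 10, and Benjamini-Hochberg adjustment over all tested positions at 0.05. The test of protected positions also required that the score averaged 0.5 or more across the set. The first and last 6 positions of each RNA were not tested. Standard errors were derived from the log2 end ratio and F (its size divided by the root of F). The fit was tested on simulated data. Dense segments had a rolling median over 101 positions of at least 5 ends per 1000000 in the controls of both neuron sets. DESeq2 1.42.0, limma 3.58.1, other minimums, windows and scalings, and leaving out each library were tried as alternatives.

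Named positions were every called protected position, the 20 called positions of any score with the largest log2 end ratio, neighbours of called U2 runs, U2 positions with 0.9 or more in both controls and the 5 largest differences from the Snord101 comparison. 45S 8841, 9406, 686 and 687, 45S 10510, 10580, 10586 and 10587 and the extreme positions of a list were named after their values were seen. The comparison, lists and rule were chosen with earlier results of these data known. The p-values measure the spread between these libraries. Counts of A and B differed by far more than sampling noise (chi-square per degree of freedom 86.8 between the controls and 20.3 between the knockdown libraries), so each was counted as 1 replicate. Reads without molecular identifiers are not independent molecules. The ASO sequence is not reported here.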

Additional observations from a re-analysis of the deposited data

Results flagged for a closer look

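At 9 positions of the 45S the Snord89 and Snord101 effects differed past the threshold of edgeR's interaction test (0.0696% of those tested). The values are the Snord89 minus the Snord101 log2 end ratio. At 45S 11405 the difference was -5.391 (edgeR adjusted p = 0.0019), with 417, 422, 512 and 769 ends in the Snord89 set and 744, 1332, 76201 and 52968 in the Snord101 set (control A, control B, knockdown A, knockdown B). At 45S 681 it was 2.185 (edgeR adjusted p = 3.9e-04), from 0.62 and -1.56. At 45S 678 it was -1.954 (edgeR adjusted p = 0.0019), from -0.23 and 1.73. At 45S 684 it was 1.681 (edgeR adjusted p = 0.0052), where the Snord101 set had 3320 and 5017 ends in the controls against 1060 and 928 in the knockdown. At 45S 686 and 45S 687 it was -1.116 and -1.282 (edgeR adjusted p = 0.0331 each). At 45S 816 it was 2.155 (edgeR adjusted p = 0.0331), on 71, 89, 42 and 33 ends in the Snord89 set and 900, 572, 47 and 39 in the Snord101 set. In 28S it was 1.538 at 45S 8841 (edgeR adjusted p = 0.0331) and 1.208 at 45S 9406 (edgeR adjusted p = 0.0306). The controls of the sets themselves differed at several of these positions in their ends relative to the flanking mean. At 45S 8841 this ratio was 0.657 and 0.676 in the Snord89 set and 3.08 and 2.48 in the Snord101 set. At 45S 9406 it was 1.06 and 1.16 against 3.04 and 2.67, and at 45S 678 it was 1.32 and 1.32 against 3.40 and 3.19. The part of these control levels in the differences was not tested.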

How the results depend on the processing

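The count of 8 protected calls was 5 with a flanking minimum of 100, 5 with no flanking minimum, 37 by DESeq2 (26 with more ends, 11 with fewer), 1 by limma, 3 with the median of the flanking counts, 2 with TMM library totals, 3 with a score minimum of 0.75, 15 with that of 0.5 in either group (10 and 5), and 3 to 104 with 1 library left out. The count of 39 at any score was 255 by DESeq2 (144 and 111), 0 by limma and 4 to 593 with 1 library left out. The labels do not say whether libraries of the same letter share a culture, so they were not paired, and the correlation of same-letter deviations was 0.0669. With the replicate block the counts were 3 protected calls, 222 at any score (all 39 among them) and 3 differences from the Snord101 comparison in place of 9, the same count as with any 1 of the 4 libraries of the Snord89 set left out. No library of the Snord101 set was left out.

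The count lower by 0.1 was 203 at a difference of 0.05, 19 at 0.2, 6 with a score minimum of 0.75, 48 with a flanking minimum of 100 and 45 with the flanking median, in place of 94. The count higher was 127, 23, 6 and 24 under the first 4 of these, in place of 69. The 3′ spacer difference of -0.00219 became 0.03443 with segments at 10 ends per 1000000. With TMM library totals, which compare the position's own ends, 45S 8260 had a log2 ratio of -0.08176 and U2 91 one of 0.1147. Both are opposite in sign to their log2 end ratio, which is relative to the flanking mean. U2 12 passed as a protected position in 14 of 14 alternatives and U2 11 in 10 of the 11 that tested it. Without either control, or with a score minimum of 0.75, the mean score of U2 11 was under the minimum and it was not tested. At any score U2 11 had an edgeR adjusted p of 0.0512 without Snord89 ASO B, with a log2 end ratio of 4.26. The causes were not tested. Depth limits the spacers most, and the score at U2 40 rests on 7 to 11 ends.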
